A study of Rattus norvegicus with 11 samples.

Results

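The chemokine receptors of blood leukocytes described here are 9 genes, Cxcr1, Cxcr2, Cxcr3, Cxcr4, Cxcr5, Ccr1, Ccr6, Ccr7 and Cx3cr1, taken by symbol from a table of 32623 genes. Each symbol stood on 1 gene of the table. The RNA came from peripheral white blood cells (WBCs) of male Wistar rats, 7 weeks old, after the red blood cells had been lysed. Collagen-induced arthritis (CIA) was raised in 4 of them by injection of type II collagen in incomplete Freund's adjuvant with a boost on day 7, and the other 3 rats were normal healthy controls without arthritis. Each CIA rat was sampled at Nampt++ status (about day 8) and at Nampt+ status (about day 14), so that status and time in the rat cannot be told apart. The study set the status by its own PCR of Nampt, a gene of NAD synthesis. All 3 comparisons share samples, since each group enters 2 of them.

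Chemokine receptors are G protein-coupled receptors that steer leukocytes along gradients of secreted chemokines. Cxcr1 and Cxcr2 bind ELR-type CXC chemokines and draw neutrophils out of the blood, Ccr1 and Cx3cr1 serve monocytes and other myeloid cells, and Ccr7, Cxcr5, Ccr6 and Cxcr3 guide T and B cells to lymph nodes, follicles, mucosa and inflamed tissue. Cxcr4, the receptor of Cxcl12, holds cells in bone marrow and is carried by most leukocytes. In arthritis these receptors are known for bringing cells into the synovium. In bulk samples such as these, fewer cells of a type and less RNA per cell cannot be told apart.

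The table listed all 9 genes with reads in at least some of the samples. RefSeq's promoter table (build GRCr8) held a promoter for 7 of them, and Ccr7 and Cxcr5 were not matched. The 250 bases before the start are printed for Cxcr2 (chr9:83178395-83178644, plus strand) and Ccr1 (chr8:132439267-132439516, minus strand), whose levels moved together over the samples, for Cxcr4 (chr13:42634289-42634538, minus strand), which had the highest level, and for Cxcr1 (chr9:83220226-83220475, minus strand), the neighbour of Cxcr2 that was barely detected. Capitals mark matches on either strand to TATAAA (the TATA box), GGGCGG (the GC box), CCAAT and GAGGAA (the core letters bound by the myeloid factor PU.1).
Cxcr2: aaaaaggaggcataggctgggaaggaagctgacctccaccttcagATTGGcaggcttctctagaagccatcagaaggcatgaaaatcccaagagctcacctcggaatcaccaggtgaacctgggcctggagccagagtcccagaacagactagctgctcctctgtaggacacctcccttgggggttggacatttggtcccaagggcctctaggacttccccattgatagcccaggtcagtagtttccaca
Ccr1: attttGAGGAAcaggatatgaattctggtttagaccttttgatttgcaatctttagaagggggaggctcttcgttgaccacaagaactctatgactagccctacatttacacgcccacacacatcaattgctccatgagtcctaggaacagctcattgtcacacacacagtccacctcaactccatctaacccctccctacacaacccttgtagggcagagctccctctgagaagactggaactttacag
Cxcr4: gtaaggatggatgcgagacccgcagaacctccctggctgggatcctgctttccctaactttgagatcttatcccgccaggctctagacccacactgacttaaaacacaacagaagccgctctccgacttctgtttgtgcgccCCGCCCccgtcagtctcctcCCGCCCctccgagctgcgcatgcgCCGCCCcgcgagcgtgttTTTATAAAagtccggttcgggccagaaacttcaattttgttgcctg
Cxcr1: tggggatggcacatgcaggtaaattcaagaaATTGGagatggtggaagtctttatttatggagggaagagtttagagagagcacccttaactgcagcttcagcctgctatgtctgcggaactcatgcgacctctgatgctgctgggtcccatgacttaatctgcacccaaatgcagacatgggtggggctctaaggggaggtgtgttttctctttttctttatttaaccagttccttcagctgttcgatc
Among 33469 promoter windows of the same length, 12.9% held TATAAA, 30.5% GGGCGG, 34.0% CCAAT and 23.3% GAGGAA. Cxcr2 and Cxcr1 each held 1 CCAAT match, on the minus strand, from base -205 and base -219. Ccr1 held 1 GAGGAA match, from base -245. Cxcr4 held 3 GGGCGG matches within the last 108 bases and a TATAAA match on each strand between -46 and -39, the pair overlapping. Its window was 57.6% G and C, against 54.4% for Cxcr2, 46.4% for Ccr1, 47.2% for Cxcr1 and a median of 51.2% over all windows. These matches are letters in a window and were not tested against the expression values.

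Total counts lay between 65340027 and 85819418 a sample, and the 11 haemoglobin genes took 6.84% to 42.8% of them. Levels are compared between genes as FPKM, in which the fragments of a gene are divided by its transcript length and the library size. Spread and correlation over samples are given as log2 CPM, the log2 of the counts scaled to library size with TMM factors. White blood cell markers were present throughout: 9 of 9 T cell and 7 of 7 B cell markers were at or above FPKM 1 in every sample, as were 9 of 10 neutrophil and 6 of 7 monocyte markers (Ltf and Ms4a7 were below 1 in all). The deposited extraction text names retinas, and 7 of 8 retina markers were below FPKM 1 in every sample. Nampt itself, as read in this table, did not separate the groups, its FPKM lying between 10.1 and 46.5 at Nampt++, between 11.4 and 36.9 at Nampt+ and between 13.5 and 32.9 in controls. In rats 2 and 4 it was lower in the library labelled Nampt++ (10.1 and 30.6) than in the library labelled Nampt+ (14.3 and 36.9), against the labels. The summed neutrophil markers were highest in the Nampt++ sample of rat 1, at 40126 FPKM, against 2165 to 15669 in the other 10 samples.

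The receptors formed a wide ladder of levels. Cxcr4 stood at the top in each of the 11 samples, with a mean FPKM of 636, place 145 among all genes of the table, and 39.8% to 72.7% of the summed FPKM of the 9 receptors. Ccr7 followed at 207, Cxcr2 at 97.0 and Ccr1 at 96.6, then Cxcr5 at 12.3, Cxcr3 at 5.00, Cx3cr1 at 4.36, Ccr6 at 4.01 and Cxcr1 at 0.0513. Cxcr4 was above Ccr7 in 11 of 11 samples with no overlap of their ranges, and Ccr1 above Cxcr5 likewise. Cxcr2 exceeded Ccr1 in only 2 of 11 samples although its mean was the higher, so their order was not settled. Cxcr3, Cx3cr1 and Ccr6 could not be ordered either, Cxcr3 lying above Cx3cr1 in 8 of 11 samples and Cx3cr1 above Ccr6 in 7 of 11.

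**Figure D1:**
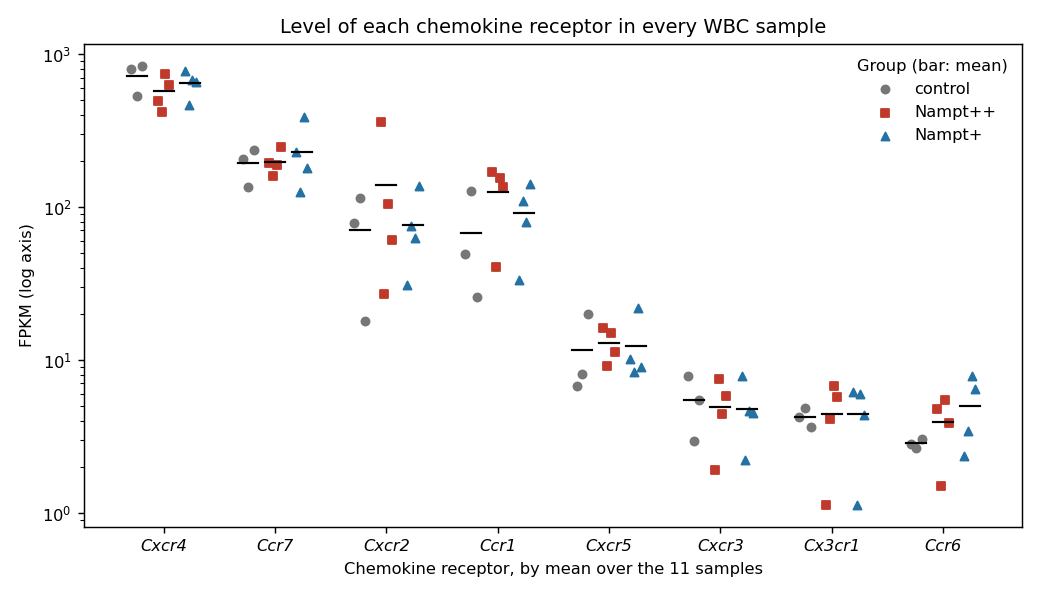
FPKM on a log axis of the 8 receptors with a mean of at least 1, with 1 point a sample and a bar at the mean of each group (3 controls, 4 Nampt++ and 4 Nampt+ samples). Cxcr4 lies between 416 and 833 in all samples, Cxcr2 spreads from 17.9 to 360, and the 3 groups overlap for every receptor shown.

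Depth did not limit the abundant receptors. Reads per sample ran from 59661 to 123975 for Cxcr4, from 13180 to 45300 for Ccr7, from 4022 to 25420 for Ccr1 and from 2008 to 37040 for Cxcr2. Among the receptors with fewer reads, Cx3cr1 had 111 to 788 and Ccr6 had 180 to 918, where counting error weighs more.

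Cxcr2, the receptor through which neutrophils follow Cxcl1 and Cxcl2, varied the most among the 8 receptors with a mean FPKM of at least 1. Its gene (ENSRNOG00000014269) is listed on chromosome 9 from 81427730 to 81434102, in the table's own build, which is not given in the sources used here. The controls had FPKMs of 78.5, 115 and 17.9. The Nampt++ samples of rats 1 to 4 had 360, 26.9, 105 and 60.9, and the Nampt+ samples 30.7, 74.5, 62.3 and 137. A single library, Nampt++ of rat 1, was far above the rest, and the 3 groups overlapped. Group means were 138 ± 151 (SD, n = 4) at Nampt++, 76.0 ± 44.4 (SD, n = 4) at Nampt+ and 70.4 ± 48.9 (SD, n = 3) in controls. The ratio of means was 0.55 for Nampt+ against Nampt++ and 1.96 for Nampt++ against control, near the study's limits of 0.5 and 2. The fitted log2 fold changes were -0.67 ± 0.75 (SE) and 0.71 ± 0.95 (SE), so both were smaller than their own error. Without the Nampt++ library of rat 1 they turned to 0.36 and -0.33. For Nampt+ against control the fitted log2 fold change was 0.02 ± 0.76 (SE).

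Ccr1, the receptor of Ccl3 and Ccl5 on monocytes and rat neutrophils, behaved much like Cxcr2. Its gene (ENSRNOG00000006715) lies on chromosome 8 from 132996649 to 133002201 among other CC chemokine receptor genes. FPKMs were 48.9, 127 and 25.6 in controls. Nampt++ samples had 169, 40.1, 155 and 136, and Nampt+ samples 33.2, 109, 79.2 and 140. In FPKM, 3 of 4 Nampt++ libraries were above every control, and that of rat 2 was below 2 of the 3. This order depended on the scale. In log2 CPM control 2 had 8.267, above the Nampt++ libraries of rats 1 to 4 (8.247, 6.467, 8.250 and 7.771). The mean was 125 ± 58.3 (SD, n = 4) at Nampt++ against 67.2 ± 53.1 (SD, n = 3) in controls, and the difference in mean log2(FPKM + 1) was 1.00, with a two-sided exact permutation p of 0.229. The gene-wide fit gave a log2 fold change of 0.62 ± 0.71 (SE), a ratio of means of 1.86 and an unadjusted edgeR p of 0.402. Single controls moved these values both ways. Without control 2, Ccr1 was called, at 1.78, a ratio of 3.35 and an unadjusted edgeR p of 0.0225, where 4.09% of all genes tested were called too. Without control 3 the fitted value was 0.17 with a ratio of 1.42, and the difference in mean log2(FPKM + 1) was 0.47. The mean at Nampt+ was 90.4 ± 45.5 (SD, n = 4). Ccr1l1, a neighbouring paralog of Ccr1 that was chosen after its values were seen, had an FPKM of 1.34 to 12.2, and Ccr1 exceeded it by 10.1 to 25.9 times. Reads of the pair could have been split between them in counting, and across the 11 samples their log2 CPM had r = 0.96.

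Cxcr1, which in other mammals shares ligands and cells with Cxcr2, was almost absent. Its gene (ENSRNOG00000048239) lies 32229 bases from that of Cxcr2, from 81466332 to 81469274 on chromosome 9 and on the opposite strand. Control 2 had 23 reads, the Nampt++ samples of rats 1 and 2 had 19 and 12, and the Nampt+ sample of rat 4 had 16. The other 7 libraries had 0 reads, which allows a level of up to 0.0351 to 0.0459 CPM (3 reads of each total, for counting error only). The highest level was 0.268 CPM, in control 2. The 4 libraries with reads came from all 3 groups, and Cxcr1 was below the limit on low values and was not tested. Cxcr2, by contrast, had at least 2008 reads in every library.

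Cx3cr1, the receptor of Cx3cl1 on patrolling monocytes and cytotoxic lymphocytes, was low and had a pair of outlying libraries. The table places its gene (ENSRNOG00000018509) on chromosome 8 from 128740756 to 128754514. Controls had 4.25, 4.83 and 3.64 FPKM. The Nampt++ samples had 1.13, 4.11, 6.69 and 5.74 and the Nampt+ samples 6.15, 1.13, 6.003 and 4.35. A value of 1.13 thus appeared in each CIA group, at Nampt++ in rat 1 and at Nampt+ in rat 2, while the other 9 libraries lay between 3.64 and 6.69. Group means were nearly equal, at 4.24 ± 0.60 (SD, n = 3) in controls, 4.42 ± 2.44 (SD, n = 4) at Nampt++ and 4.41 ± 2.33 (SD, n = 4) at Nampt+. The controls were thus much the least spread of the groups in FPKM, and less clearly so in log2 CPM. There they had 2.53, 3.08 and 2.02, and the Nampt+ samples 3.00, 1.40, 2.80 and 2.34. The libraries at 1.13 FPKM had a log2 CPM of 0.57 (Nampt++ of rat 1) and 1.40 (Nampt+ of rat 2).

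Ccr7, which brings naive T cells and dendritic cells to lymph nodes along Ccl19 and Ccl21, was abundant and steady. Its gene lies (ENSRNOG00000010665) on chromosome 10 from 87057136 to 87067456. Controls had 205, 135 and 237 FPKM, Nampt++ samples 193, 158, 189 and 245, and Nampt+ samples 228, 125, 386 and 178. The Nampt+ sample of rat 3 was the highest, and all others lay from 125 to 245. Means were 192 ± 52.1 (SD, n = 3), 196 ± 36.3 (SD, n = 4) and 229 ± 113 (SD, n = 4) in that order of groups. Ccr7 and Cxcr4 were the least variable of the receptors, each with an SD of 0.28 in log2 CPM over the 11 samples, against a median of 0.37 over the 11242 genes whose FPKM averaged 1 or more. Of those genes 30.1% varied less than Ccr7 and 31.3% less than Cxcr4.

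Cxcr5, the receptor of Cxcl13 that takes B cells and follicular helper T cells into follicles, had 6.70, 8.11 and 19.9 FPKM in controls. It is listed (ENSRNOG00000012430) on chromosome 8 from 48836957 to 48850671. The values were 16.1, 9.15, 15.1 and 11.3 at Nampt++ and 10.1, 8.30, 21.8 and 8.93 at Nampt+. Control 3 and the Nampt+ sample of rat 3 were the highest, and the groups overlapped. Control 3 was also the library with the highest summed B cell markers, 1307 FPKM against 288 to 637 in the others, and the part of these cells in the value of Cxcr5 there was not tested. Means were 11.6 ± 7.22 (SD, n = 3) in controls, 12.9 ± 3.24 (SD, n = 4) at Nampt++ and 12.3 ± 6.37 (SD, n = 4) at Nampt+.

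Ccr6, the Ccl20 receptor carried by Th17 cells and B cells, gave the smallest edgeR p of the 8 receptors tested. On the log2(FPKM + 1) scale the smallest exact permutation p was that of Ccr1 for Nampt++ against control. With log2 CPM it was that of Cxcr4 for the same comparison. Ccr6 is listed (ENSRNOG00000012964) on chromosome 1 from 53065025 to 53087474. Controls were close together at 2.81, 2.65 and 3.05 FPKM. Nampt++ samples had 4.78, 1.502, 5.44 and 3.88 and Nampt+ samples 2.34, 3.41, 7.83 and 6.39. In FPKM, at each status 3 of 4 libraries were above all controls and 1 was below them, that of rat 2 at Nampt++ and that of rat 1 at Nampt+. In log2 CPM this held at Nampt+ only. There the Nampt++ library of rat 4 (2.28) lay among the controls (2.04, 2.32 and 1.87). Means were 2.84 ± 0.20 (SD, n = 3), 3.90 ± 1.72 (SD, n = 4) and 4.99 ± 2.55 (SD, n = 4). For Nampt+ against control the fitted log2 fold change was 0.80 ± 0.38 (SE), the ratio of means 1.76 and the unadjusted edgeR p 0.0716, with an adjusted p of 0.99999. DESeq2 gave an unadjusted p of 0.0488, with the ratio still below the study's limit. Without the Nampt+ library of rat 1 Ccr6 met both thresholds, at a log2 fold change of 1.04, a ratio of 2.07 and an unadjusted edgeR p of 0.00532, where 0.87% of all genes tested were called. For Nampt++ against control the fitted log2 fold change was 0.39 ± 0.40 (SE).

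Cxcr3, which takes activated T cells and NK cells towards Cxcl9, Cxcl10 and Cxcl11, had 7.87, 2.96 and 5.45 FPKM in controls. The table lists it (ENSRNOG00000003305) on chromosome X from 71614346 to 71616997. It had 1.91, 7.50, 4.44 and 5.81 at Nampt++ and 7.80, 2.20, 4.61 and 4.48 at Nampt+. Low and high libraries occurred in every group. Means were 5.43 ± 2.45 (SD, n = 3), 4.92 ± 2.36 (SD, n = 4) and 4.77 ± 2.30 (SD, n = 4), differences that were small beside the SDs.

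Cxcr4 is listed (ENSRNOG00000003866) on chromosome 13 from 45314933 to 45318878. It had 800, 528 and 833 FPKM in controls. The Nampt++ samples had 493, 416, 740 and 622 and the Nampt+ samples 768, 462, 676 and 653. In FPKM, 2 of the 4 Nampt++ libraries, those of rats 1 and 2, lay below every control, and the groups overlapped. In log2 CPM that of rat 4 (9.89) was also below the controls (10.48, 10.25 and 10.25). That of rat 3 (10.43) was not. Means were 720 ± 167 (SD, n = 3) in controls, 568 ± 143 (SD, n = 4) at Nampt++ and 640 ± 128 (SD, n = 4) at Nampt+. For Nampt++ against control the fitted log2 fold change was -0.36 ± 0.25 (SE), with an unadjusted edgeR p of 0.200.

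In the gene-wide edgeR fit, 8 of the 9 receptors passed the limit on low values (FPKM averaging 1 or more) in each comparison. A call needed a change of more than 2 times in mean FPKM, up or down, and an unadjusted p below 0.05, and 0 of 8 were called in any of the 3. Of all genes tested, 0.642% were called for Nampt+ against Nampt++ (72 of 11219), 0.686% for Nampt++ against control (77 of 11219) and 0.497% for Nampt+ against control (56 of 11269), so that a list of 8 genes with no call was near the background. The unadjusted p was under 0.05 for 0 of 8 receptors in each comparison by edgeR and by limma, and by DESeq2 for 0, 0 and 1 (Ccr6, for Nampt+ against control), against 2.28%, 1.57% and 0.87% of all genes tested by edgeR. The groups of 0 of 8 receptors were free of overlap, against 0.41%, 1.1% and 0.444% of all genes tested. Benjamini-Hochberg adjusted p-values of edgeR were 0.9996 or higher for all 8 in all 3 comparisons. Leaving out any single library of rats 2 and 4, in which Nampt went against the labels, also left 0 of 8 called in all 3 comparisons. Each of these fits kept the other libraries of these rats, so the outcome does not bear on the labels. The median log2 fold change of the 8 was -0.04, 0.11 and 0.10 in the same order of comparisons, against medians of nearly 0 over all genes. Exact permutation p-values of single receptors on the log2(FPKM + 1) scale were all at or above 0.229, where 0.0286 was the smallest these designs could give. With log2 CPM the smallest exact permutation p was 0.114, for Cxcr4 in Nampt++ against control. These p-values do not show that the receptors were equal between groups, given standard errors of up to 0.95 on the log2 scale for Cxcr2.

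**Figure D2:**
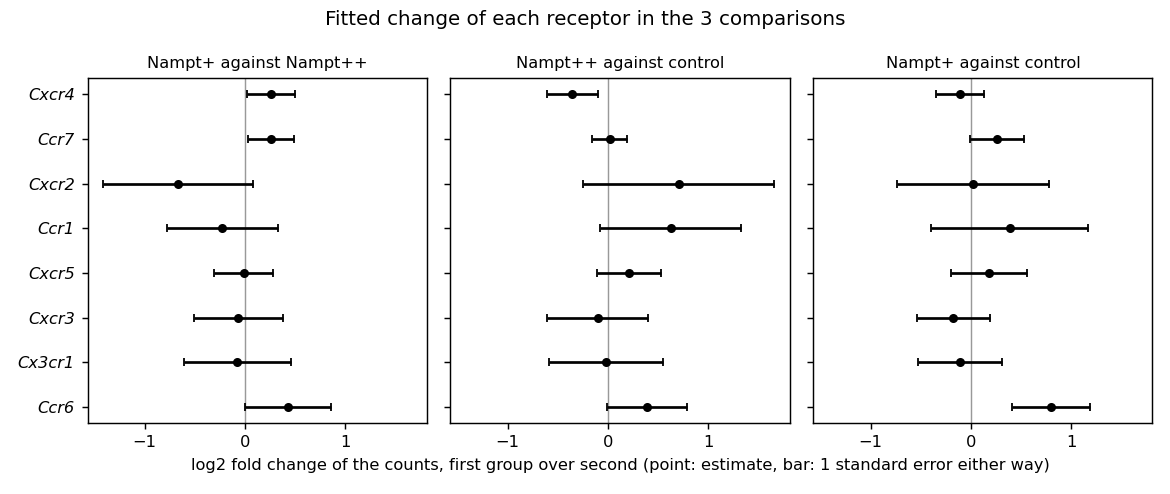
Fitted log2 fold change of 8 receptors in the 3 comparisons, first group over second, from the deposited counts, with bars of 1 standard error either way. Cxcr2 and Ccr1 have the widest bars and Cxcr4, Ccr7 and Cxcr5 narrow ones, and Ccr6 for Nampt+ against control (0.80 ± 0.38) lies farthest from 0 in units of its error.

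Within single rats the changes were large but went in different directions. In rat 1 the FPKM of Cxcr2 was 360 at Nampt++ and 30.7 at Nampt+, and that of Ccr1 was 169 and 33.2. In rat 2 both went the other way, Cxcr2 from 26.9 to 74.5 and Ccr1 from 40.1 to 109. Rat 3 had lower levels of both at Nampt+ and rat 4 a higher Cxcr2 (60.9 and 137) with a nearly level Ccr1 (136 and 140). Nampt as read in these libraries went the same way as Cxcr2 in each rat. Its FPKM at Nampt++ and Nampt+ was 46.5 and 11.4 in rat 1 and 36.1 and 27.5 in rat 3. For rat 2 it was 10.1 and 14.3, and for rat 4 30.6 and 36.9. The cause was not tested. Cxcr3 and Cx3cr1 mirrored Cxcr2 and Ccr1 in rats 1 and 2. Cx3cr1 had 1.13 and then 6.15 in rat 1 but 4.11 and then 1.13 in rat 2. Cxcr3 had 1.91 and then 7.80 in rat 1 but 7.50 and then 2.20 in rat 2. Cxcr4 was higher at Nampt+ in 3 of 4 rats, and Ccr6 in 3 of 4. Sign-flip permutation over the 4 rats gave exact p-values from 0.375 to 1.0, where 0.125 is the smallest possible. With the rat as a replicate block, 0 receptors were called, and the fitted log2 fold change of Cxcr2 was -0.20.

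**Figure D3:**
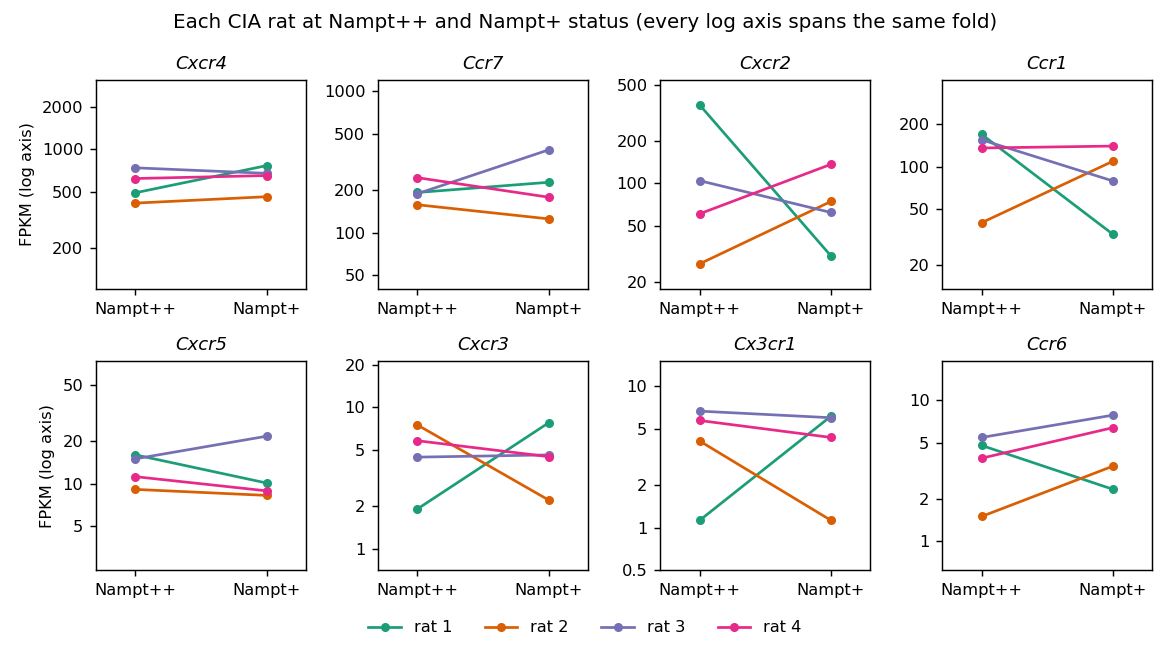
FPKM of 8 receptors in each of the 4 CIA rats at Nampt++ and Nampt+ status, with a line for each rat and a log axis spanning the same fold in every panel. The lines of rats 1 and 2 cross for Cxcr2, Ccr1, Cxcr3, Cx3cr1 and Ccr6, while those of Cxcr4 are nearly flat.

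The receptors differed widely in how far they spread between samples. The SD of log2 CPM was 1.28 for Cxcr2, more than for 95.7% of genes, and 1.09 for Ccr1, more than for 93.3%. It was 0.80 for Cx3cr1, 0.64 for Ccr6, 0.63 for Cxcr3 and 0.48 for Cxcr5. From the lowest to the highest sample Cxcr2 covered a 23.4-fold range of CPM, Ccr1 8.91-fold and Cx3cr1 6.38-fold, but Ccr7 only 2.17-fold and Cxcr4 1.70-fold.

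Cxcr2 and Ccr1 moved together over the 11 samples, which came from 7 rats and share their libraries and scaling, with r = 0.87 and rho = 0.88 (r = 0.85 without the 2 samples farthest from the median of Cxcr2). Without the 2 samples farthest from the median of Ccr1, r was 0.73. Ccr6 went with Ccr1 at r = 0.69 and with Cxcr2 at r = 0.61. Cxcr3 ran opposite to all 3, at r = -0.67 with Cxcr2, -0.59 with Ccr1 and -0.66 with Ccr6. The r of 0.66 between Cxcr3 and Cx3cr1 fell to 0.28 without 2 samples and so rested on them. Cxcr4 had no r beyond 0.31 in size with any other receptor. These correlations describe 11 libraries and were not tested.

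Cell type markers moved with the same receptors. Over the 11 samples the summed CPM of 10 neutrophil markers had r = 0.97 and rho = 0.95 with Cxcr2 and r = 0.92 with Ccr1, and the summed monocyte markers had r = 0.95 with Ccr1 and 0.81 with Cxcr2. T cell markers ran opposite to Ccr1 (r = -0.81) and Cxcr2 (r = -0.60), and B cell markers at -0.81 and -0.74. Cxcr3 had r = 0.60 with T cell markers and 0.47 with NK cell markers. Some of these values weakened without the 2 samples farthest from the median of the marker sum. Cxcr2 then had r = 0.59 with monocyte and -0.51 with B cell markers, and Cxcr3 0.29 with NK cell markers. With neutrophil markers Cxcr2 and Ccr1 kept 0.94 and 0.91. Summed neutrophil markers ranged from 2165 to 14270 FPKM in controls, from 3014 to 40126 at Nampt++ and from 3838 to 15669 at Nampt+, and monocyte markers from 4218 to 10722, from 5710 to 12859 and from 5428 to 13834. Ccr7 had r = 0.17 with T cell markers, Cxcr5 0.26 with B cell markers and Cx3cr1 -0.0017 with monocyte markers, although those cells are their known carriers. The part of cell numbers in any of these levels was not tested. Nampt had r = 0.90 with Cxcr2 and with Ccr1, 0.70 with Ccr6 and -0.70 with Cxcr3.

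**Figure D4:**
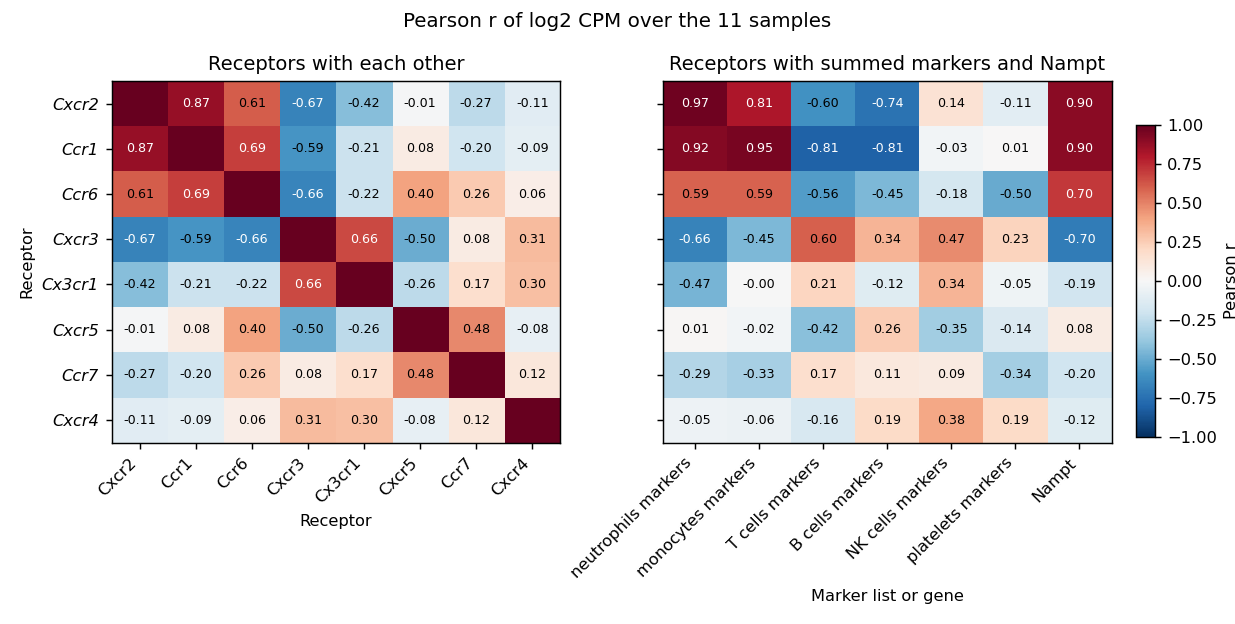
Pearson r of log2 CPM over the 11 samples, between 8 receptors (left) and between them and summed marker genes of 6 cell types and Nampt (right). Cxcr2, Ccr1 and Ccr6 form a block of positive values (0.61 to 0.87) that also goes with neutrophil and monocyte markers and Nampt, and the rows of Ccr7 and Cxcr4 are pale.

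**Figure D5:**
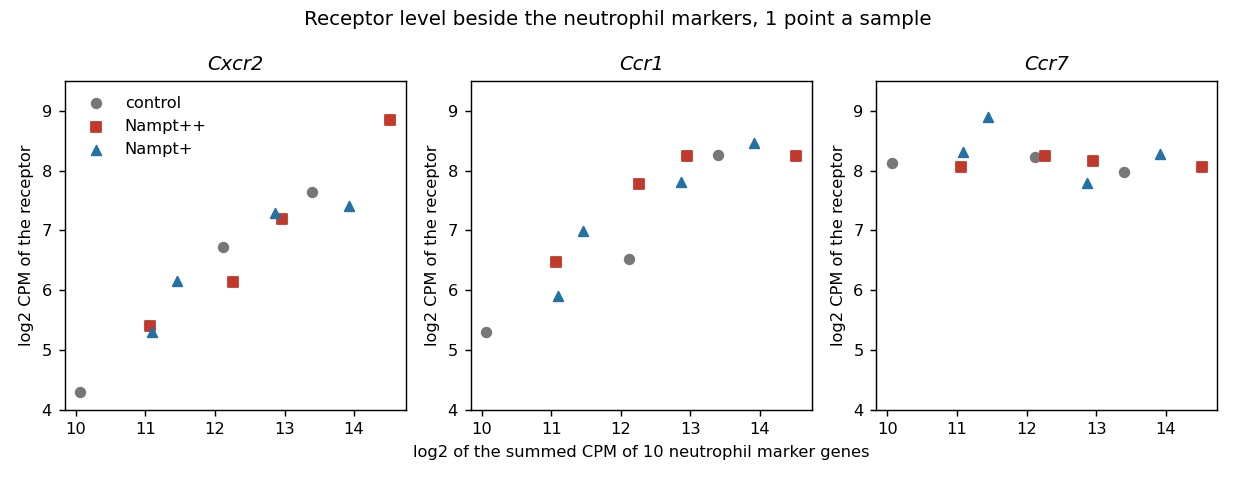
Log2 CPM of Cxcr2, Ccr1 and Ccr7 against log2 of the summed CPM of 10 neutrophil marker genes, with 1 point a sample. Over all samples pooled, Cxcr2 and Ccr1 are higher where the markers are higher (r = 0.97 and 0.92), and for Ccr7 r is -0.29.

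The genes closest to each receptor were sought, among genes whose FPKM averaged 10 or more, by Pearson r of log2 CPM over the 11 samples. For Cxcr2 these were Csf3r, the G-CSF receptor and itself among the neutrophil markers, Cpne3 and Lrg1, each at r = 0.98. For Ccr1 they were Cd44, a hyaluronan receptor, Clec7a, the beta-glucan receptor dectin-1, and Nfkbie, an inhibitor of NF-kB, each at r = 0.99. Cxcr3 went with Fcgr3a (0.90), Aga (0.88) and the NK cell receptor gene Klrd1 (0.87). Klrd1 is itself among the NK cell markers. Fcgr3a is among the neutrophil markers, although their sum had r = -0.66 with Cxcr3. Cxcr4 had no close partner, with Rgs2, a regulator of G protein signalling, first at 0.77, then Rpl9 at 0.73 and Mt-co2 at 0.72. Cxcr5 went with Arih2 (0.90), Lrrc8d (0.90) and Kat5 (0.88), and Ccr6 with Cdk13 (0.93), Tpcn2 (0.88) and Mbd1 (0.86). For Ccr7 the first were AABR07051564 (0.89), Icoslg (0.79) and Tgif2 (0.78), and for Cx3cr1 AABR07061378 (0.90), Irf8, a factor of monocyte development (0.89) and Adgre1, the F4/80 antigen (0.89). Without the 2 samples farthest from the median of the receptor, the r of AABR07051564 was 0.28, that of Icoslg -0.02 and that of Tgif2 0.45. For Cx3cr1 the r of AABR07061378 fell to 0.18, that of Irf8 to 0.61 and that of Adgre1 to 0.53.

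Of 15 other chemokine receptors and related proteins, 13 were found and 8 had a mean FPKM of at least 1. Ccrl2, which binds chemerin without signalling, had a mean close to that of Ccr7, at 204, and a range from 54.8 to 340. Cmklr1, the signalling chemerin receptor, had a mean of 7.22, Ccr4 3.24, Cxcr6 2.53, Ccr9 2.00, Ccr3 1.64 and Ccr10 1.53. In each comparison 0 of 8 were called. Of all genes tested, 0.642% were called for Nampt+ against Nampt++, 0.686% for Nampt++ against control and 0.497% for Nampt+ against control. With all samples limma called Ccrl2 for Nampt++ against control, where 1.37% of all genes tested were called. In that comparison 2 were called without control 2, Ccrl2 among them, where 4.09% of all genes were called. Cxcr6 was called there without Nampt++ of rat 1 (0.767% of all genes). Ccr4 was called for Nampt+ against control by DESeq2 (0.648% of all genes), with all groups in 1 fit (0.497%) and without Nampt+ of rat 2 (0.657%). In the last setting it was also called for Nampt+ against Nampt++ (1.45%). Cmklr1 had an unadjusted edgeR p of 0.0125 for Nampt+ against Nampt++, with a log2 fold change of -0.57 ± 0.18 (SE) and an adjusted p of 0.9996. Its FPKMs were 8.24, 9.19, 8.62 and 10.5 at Nampt++ and 7.75, 3.55, 7.41 and 5.29 at Nampt+, so the groups did not overlap, but the ratio of means was 0.66. Ccrl2 had a ratio of 2.15 for Nampt++ against control with a log2 fold change of 0.91 ± 0.55 (SE) and an unadjusted p of 0.135. The median log2 fold change of the 8 was -0.25, 0.48 and 0.03 for Nampt+ against Nampt++, Nampt++ against control and Nampt+ against control.

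All 24 chemokine ligands of a list were found and 16 were tested, or 15 for Nampt+ against control. A single ligand of the 16 was called, Ppbp, the platelet chemokine that acts on Cxcr2, which was lower at Nampt++ than in controls. In that comparison 0.686% of all genes tested were called. Its FPKMs were 11.3, 12.1 and 27.3 in controls and 5.75, 12.0, 5.09 and 7.08 at Nampt++, with a ratio of 0.44, a log2 fold change of -1.09 ± 0.40 (SE), an unadjusted p of 0.0283 and an adjusted edgeR p of 0.9999. The call of Ppbp was lost with all groups in 1 fit and without control 2, control 3 or the Nampt++ library of rat 1, 3 or 4. DESeq2 and limma called Ppbp and also Cxcl16, the membrane-bound ligand of Cxcr6, where 1.08% and 1.37% of all genes tested were called. Cxcl16 was called as well without control 2 (with Ccl3 and Cxcl11), where 4.09% of all genes were called. Without Nampt++ of rat 1 it was called with Ccl9 (0.767% of all genes). Without control 3 the calls were Cxcl2 and Xcl1, where 1.27% of all genes were called. For Nampt+ against Nampt++ 0 ligands were called by edgeR without a block, where 0.642% of all genes tested were. DESeq2 called 3 (Ccl7, Cxcl16 and Cxcl3) and limma 1 (Ccl7), where 0.927% and 0.865% of all genes were called. With the rat as a replicate block 1 was called (Cxcl16), by edgeR (0.499% of all genes) and by limma (1.15%). Without Nampt++ of rat 1, 5 of the ligands were called (Ccl7, Ccl2, Cxcl16, Cxcl3 and Ccl9), where 0.92% of all genes tested were called. There were 2 calls without Nampt+ of rat 1 (Ccl7 and Cxcl3), where 0.751% of all genes were called, and 1 without Nampt+ of rat 3 (Cxcl16), where 0.726% were. For Nampt+ against control 0 ligands were called, where 0.497% of all genes tested were. Cxcl3 was called, however, under upper quartile scaling (0.532% of all genes), by limma (0.754%) and with no limit on FPKM (1.35%). The same gene was called with all groups in 1 fit (0.497%) and without control 1 (0.587%) or control 3 (1.0%). There were 2 calls without control 2 (Cxcl16 and Ccl9), where 1.2% of all genes were called, and 2 without Nampt+ of rat 1 (Ccl7 and Cxcl3), where 0.87% were. The most abundant ligands were Pf4, a platelet chemokine, with a mean FPKM of 6032, Ccl3, a ligand of Ccr1, with 1057, and Ccl6 with 639. Cxcl12, the ligand of Cxcr4, had at most 0.033 FPKM, and Cxcl13, Ccl19, Ccl20 and Ccl21, the ligands of Cxcr5, Ccr7 and Ccr6, were listed at 0 in all samples.

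Of 30 genes of receptor signalling and desensitization (G proteins, receptor kinases, arrestins, RGS proteins, PI3K gamma and integrins), 29 were found and tested. Of these, 0 were called in each comparison. The share of all genes tested was 0.642% for Nampt+ against Nampt++, 0.686% for Nampt++ against control and 0.497% for Nampt+ against control. For Nampt+ against Nampt++ Grk3, a receptor kinase, was called by DESeq2 with all samples (0.927% of all genes) and by edgeR without Nampt++ of rat 1 (0.92%). The calls for Nampt++ against control were Pik3r6 and Pik3r5 without control 2, where 4.09% of all genes tested were called, Rgs1 and Rgs16 without control 3 (1.27% of all genes) and Rgs1 without Nampt++ of rat 3 (0.784%). Their median log2 fold change was -0.14 for Nampt+ against Nampt++, 0.21 for Nampt++ against control and 0.03 for Nampt+ against control. No gene of this list had an unadjusted edgeR p under 0.05 in any of the 3 comparisons.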

How the data were processed

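RNA of WBCs was sequenced in 11 samples (4 Nampt++, 4 Nampt+, 3 controls). The counts are whole reads per gene that the authors deposited without normalization, and the FPKM values were also computed and deposited by the authors, with a small placeholder written for 0. The submitters' processing notes name cutadapt 1.9, HISAT2 2.0.4 and StringTie 1.3.4. Genome build, counting program and use of strand are not given in the sources used here. Each pair of groups was fitted alone in edgeR 4.0.16 (quasi-likelihood, TMM, R 4.3.3), with genes whose FPKM averaged 1 or more. Calls needed mean FPKMs differing by more than 2 times and an unadjusted p below 0.05, the study's limits. Adjusted p-values are Benjamini-Hochberg over all genes tested. Single receptors were also compared by two-sided exact permutation of mean log2(FPKM + 1). The receptors and all lists were chosen with earlier results of these data known.

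Named genes are the 9 receptors, the other receptors with FPKM averaging 1 or more, called ligands or signalling genes (at most 3 in each direction per comparison), the 3 most abundant ligands and the 3 genes most like each receptor. Nampt, Ccr1l1, the ligands listed at or near 0 and the genes called only under an alternative were chosen after their values were seen. Alternatives were upper quartile scaling, DESeq2 1.42.0, limma 3.58.1, other limits on FPKM, haemoglobin genes left out, all groups in one fit, the fitted fold, a pseudocount of 0.1, log2 CPM, leaving out each sample and the rat as replicate block. Same-numbered Nampt++ and Nampt+ samples come from the same rat. Their deviations from the means of the groups were correlated at -0.20, -0.20, 0.19 and 0.12 over 11219 genes. The values of 1 of the other receptors are not reported here. Promoters are from RefSeq (GRCr8). Other marker lists (plasma cells, platelets, basophils and mast cells, eosinophils, erythroid cells) are described in the closing observations. The number of rats limits the precision.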

Additional observations from a re-analysis of the deposited data

Results flagged for a closer look

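In 18 groups of values (9 receptors at Nampt++ and at Nampt+, 4 samples each), the highest or lowest sample was compared with the others by Dixon's criterion, which chance meets in about 1 group in 20. It was met by 2. The Cxcr5 level of the Nampt+ sample of rat 3 was 21.8 FPKM, where the other 3 Nampt+ samples lay from 8.30 to 10.1, a gap of 0.863 of the group's range. In log2 CPM the sample of rat 3 stood out less, at 4.82 against 3.89, 4.43 and 3.54 in rats 1, 2 and 4. The Cxcr1 level of the Nampt+ sample of rat 4 was 0.136 FPKM (16 reads), where the other 3 were at 0. With 3 values tied at 0 any reads in the fourth sample meet the criterion, so the chance rate does not apply to it. The groups of 3 controls were too small for this criterion.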

How the results depend on the processing

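In the comparison of Nampt+ with Nampt++, 0 receptors were called under all 18 alternatives, those with the rat as replicate block included (edgeR, and limma, which was added after seeing the data). The block changed no call among the receptors and added 1 among the ligands (Cxcl16). Leaving out each sample in turn gave 0 to 1 receptors called for Nampt++ against control (Ccr1, without control 2) and 0 to 1 for Nampt+ against control (Ccr6, without Nampt+ of rat 1), and all other settings gave 0. Without the haemoglobin genes the difference in mean log2(FPKM + 1) of Cxcr3 between Nampt+ and Nampt++ turned from -0.020 to 0.074 and with log2 CPM to 0.047, and that of Ccr7 between Nampt++ and control from 0.049 to -0.081 without the haemoglobin genes. The cause was not tested.

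With each sample left out in turn, differences of single receptors changed sign as follows, on the log2(FPKM + 1) scale. Between Nampt+ and Nampt++ the range was -0.98 to 0.25 for Cxcr2, -0.33 to 0.23 for Cxcr3, -0.43 to 0.0021 for Cxcr5, -0.025 to 0.52 for Ccr6, -0.17 to 0.37 for Ccr7 and -0.39 to 0.40 for Cx3cr1. Between Nampt++ and control it was -0.090 to 1.25 for Cxcr2, -0.46 to 0.16 for Cxcr3, -0.021 to 0.70 for Cxcr5, -0.19 to 0.22 for Ccr7 and -0.32 to 0.30 for Cx3cr1. Between Nampt+ and control it was -0.51 to 0.80 for Cxcr2, -0.48 to 0.10 for Cxcr3, -0.17 to 0.56 for Cxcr5, -0.12 to 0.42 for Ccr7 and -0.28 to 0.31 for Cx3cr1. The fitted log2 fold change of Cxcr2 ranged from -0.996 to 0.36 for Nampt+ against Nampt++ and from -0.33 to 1.49 for Nampt++ against control. Ccr1 and Cxcr4 kept the sign of their differences in all 3 comparisons under every setting tried.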

Other observations

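Other cell types were described by their summed marker FPKM. Platelet markers (5 genes, Pf4 and Ppbp among them) ranged from 3494 to 6739 in controls, from 4787 to 9648 at Nampt++ and from 1723 to 15706 at Nampt+, and erythroid markers (3 genes found) from 40308 to 76231, from 14565 to 96713 and from 36233 to 113496. Plasma cell markers ranged from 127 to 329, from 209 to 360 and from 187 to 357, and NK cell markers from 171 to 536, from 89.9 to 229 and from 79.9 to 267. Basophil and mast cell markers (1.68 to 21.4 over all samples) and eosinophil markers (1.34 to 14.9) were low.

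Ccr1 lies in a cluster of chemokine receptor genes on chromosome 8. Within 250000 bases of it, Ccr9 ran opposite to Ccr1 over the 11 samples, at r = -0.88 and rho = -0.95 (r = -0.89 without 2 samples), and Ccr1l1 ran with it at r = 0.96, whereas Cxcr6 had r = -0.06. Neighbouring genes of the cluster thus held unlike patterns in the same libraries. These values are a description of 11 samples from 7 rats and were not tested.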
